A study of Rattus norvegicus with 7 samples.

Results

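The day 4 arm of a rat model of traumatic brain injury comprised 4 male Sprague Dawley rats, killed 4 days post injury (4 dpi), with 1 array per animal. Each rat received a cerebral cortical contusion on 1 side, made by dropping a weight onto a footplate that rested on the dura through a craniotomy. On each 2-colour cDNA array, total RNA from the ipsilateral cortex, which held the lesion, was set against total RNA from the uninjured contralateral cortex of the same animal, so that the control was the other hemisphere of an operated rat and no sham-operated rat was on these arrays. The array carried 6240 cDNA clones. The members described here are the 3191 clones measured in 3 or more of the 4 animals, of which 2269 were measured in all 4. All values are log2 ratios of injured to uninjured cortex, with a value above 0 where the injured side held more of the RNA.

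A contusion crushes blood vessels and cells at the impact site. Within days, resident microglia and blood-borne macrophages gather in the lesion and clear debris through complement, Fc receptors and lysosomes. Astrocytes around it become reactive and rich in intermediate filaments, and fibroblasts and vessel cells lay down matrix, while neurons in and near the lesion are lost or lower the RNA of synaptic and ion transport proteins. A bulk ratio cannot tell fewer cells of a type from less RNA per cell, nor more cells from more RNA per cell.

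Of the 3191 clones, 84 (2.63%) were called upregulated and 12 (0.376%) downregulated, by limma with the adjusted p at most 0.02 and the mean above 0.7 or below -0.7. With 0.7 required on every array, a form of the limit that the methods also name, the counts were 35 and 1. Without replicate 3, and with 0.7 on the mean, they were 66 and 4 over the same 3191 clones. The upregulated means reached farther from 0 than the downregulated ones. The upregulated means ran from 0.70 to 6.56 with a median of 1.04, and 46 of them lay above 1. The lowest mean of any clone was -0.95. The median over all clones tested was -0.01, and 48% of the means lay above 0. Among clones that passed the adjusted p, 151 lay above 0 and 67 below, so that 67 of the higher and 55 of the lower clones passed with a mean inside the limit of 0.7. A gene name, taken from the study's lists of regulated clones by clone ID, was available for 47 of the 84 upregulated and 7 of the 12 downregulated clones. Those lists were drawn up on these arrays and on those of an earlier day, so the counts per list below describe the named clones and are not independent evidence of a direction.

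The arrays differed in yield. Replicate 2 had a value for 5082 of the 6240 clones, replicate 1 for 4133, replicate 4 for 3270 and replicate 3 for 2332, and 862 of the 3191 members lacked a value on replicate 3. The injured side was labelled with Cy5 on replicates 2 and 3 and with Cy3 on replicates 1 and 4. Across clones, Spearman's rho between arrays was 0.69 for replicates 1 and 4 and between 0.27 and 0.56 for the other pairs, a description in which clones are not independent and arrays of 1 dye orientation share any dye effect. All 84 upregulated clones lay above 0 in the mean of each dye orientation, and 67 lay above 0.7 in both. All 12 downregulated clones lay below 0 in both orientations, and 6 lay below -0.7 in both.

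Osteopontin and a clone named in the lists for 3'(2') 5'-bisphosphate nucleotidase stood far above the rest. Osteopontin (clone RNABT23), a secreted phosphoprotein that binds integrins and CD44 and is made by macrophages in injured tissue, had log2 ratios of 5.60, 5.26, 6.79 and 5.59 on replicates 1 to 4. Every animal held at least 5 log2 units more osteopontin RNA on the injured side. The mean of 5.81 ± 0.67 (SD, n = 4, adjusted p = 5.12e-07) is a 56.1-fold difference. The nucleotidase clone (RNABI21), named for an enzyme that removes phosphate from adenosine bisphosphate, had no value on replicate 1 and 6.03, 6.82 and 6.85 on replicates 2, 3 and 4. Next in size was osteoactivin (RGIAR28), a transmembrane glycoprotein of macrophages also called GPNMB, with 2.51, 3.21, 3.93 and 3.69. All 4 animals thus lay above 2.5 for osteoactivin.

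The promoters of osteopontin, of osteoactivin and of cathepsin D, a lysosomal protease with a smaller rise, are shown as examples of genes called upregulated in the same lesions. Gene symbols could be assigned to 39 upregulated genes, and 29 of them matched a promoter entry of RefSeq (GRCr8). Each sequence is the 250 bases before the gene's start, 5′ to 3′ on the gene's strand, with capitals for 3 motifs searched on both strands, and positions count from the start. The motifs were TGACTCA or TGAGTCA, the AP-1 letters, CACGTG, an E-box, and TATAAA or TTTATA, the TATA box.
Gpnmb (osteoactivin), chr4:79340878-79341127, plus strand: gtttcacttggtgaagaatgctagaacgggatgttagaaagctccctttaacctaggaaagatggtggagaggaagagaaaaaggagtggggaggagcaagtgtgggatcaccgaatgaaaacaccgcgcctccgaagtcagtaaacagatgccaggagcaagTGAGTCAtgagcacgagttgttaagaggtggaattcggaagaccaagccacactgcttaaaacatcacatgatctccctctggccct
Ctsd (cathepsin D), chr1:206968822-206969071, minus strand: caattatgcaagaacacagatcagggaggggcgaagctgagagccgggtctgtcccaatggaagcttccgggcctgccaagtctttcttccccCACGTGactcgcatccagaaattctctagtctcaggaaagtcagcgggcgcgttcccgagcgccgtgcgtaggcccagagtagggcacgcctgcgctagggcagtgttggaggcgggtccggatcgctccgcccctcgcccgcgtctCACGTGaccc
Spp1 (osteopontin), chr14:5619805-5620054, minus strand: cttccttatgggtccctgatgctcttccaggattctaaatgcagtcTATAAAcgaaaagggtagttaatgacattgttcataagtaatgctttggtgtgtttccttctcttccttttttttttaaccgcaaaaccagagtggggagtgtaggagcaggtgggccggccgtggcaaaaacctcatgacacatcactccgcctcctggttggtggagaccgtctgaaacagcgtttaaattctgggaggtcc
The Gpnmb promoter held the AP-1 letters at -87, the Ctsd promoter held CACGTG at -157 and at -10, and the Spp1 promoter held TATAAA at -204. The AP-1 letters were found in 2 of the 29 promoters, those of Gpnmb and Anxa2, and in 4.05% of the 33469 promoters of the table. CACGTG was found in 4 of 29, those of Ctsd, Cdk4, Cited2 and Msn, against 5.59%, and the TATA letters in 6 of 29 against 12.9%. These matches are letters in a window, not binding sites.

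Of 9 phagocyte and immune clones tested, out of 14 with a name, 7 were called upregulated, and the means of the 9 ran from -0.04 to 3.34 with a median of 1.22. The complement chains C1q β (RNABQ08) and C1q C (RGIAJ90) belong to the protein that starts the classical complement pathway. C1q β had 1.22, 1.69 and 2.33 on replicates 1, 2 and 4, and C1q C had 1.24, 1.72, 1.75 and 2.04 on replicates 1 to 4. The C1q clones were high in every animal with a value. The class III Fcγ receptor (RNABC93), through which phagocytes bind antibody, had 0.05 on replicate 1 and 1.51, 1.74 and 1.58 on the others (mean 1.22 ± 0.79, SD, n = 4, adjusted p = 0.0125). FYN binding protein (RGIAO59), an adaptor of leukocyte signalling, had 0.47, 1.74, 1.64 and 2.10. Both were thus lowest on replicate 1. The Fcγ receptor was not called when replicate 2, 3 or 4 was left out, with an adjusted p of up to 0.0698, nor FYN binding protein without replicate 3 (adjusted p = 0.033).

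Macrophage expressed gene 1 (RNABF77), a perforin-like protein, and CD24 (RGIAI89), a cell surface glycoprotein, were raised by less and more evenly. Their log2 ratios were 0.97, 0.57, 1.07 and 0.85, and 0.85, 0.80, 1.09 and 0.57. β2-microglobulin (RNABI87), the light chain of MHC class I, had -0.06, 0.82, 0.98 and 0.83 and did not pass (adjusted p = 0.0281). The clone of MHC class II DMβ, which helps to load peptides onto class II molecules, had values on 2 arrays only, 1.11 and 1.32, and was not tested.

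Of 8 clones of lysosomal and other proteases tested, 6 were called upregulated, and the median of the 8 means was 0.88. Preprocathepsin D (RGIAB71), the precursor of the main aspartic protease of lysosomes, had 1.40, 0.81, 1.04 and 1.34 (mean 1.15 ± 0.27, SD, n = 4, adjusted p = 0.000388). Granulin (RGIAA16), a growth factor precursor that is also needed for lysosome function, had 0.91, 0.92, 1.02 and 1.25. Cathepsin Y (RNABL31), a lysosomal carboxypeptidase, had 0.52, 0.97, 1.23 and 0.82. In these 3 clones no animal stood below 0.5. An acid sphingomyelinase-like phosphodiesterase (RNABR08) had 1.40, 0.90 and 0.75 on replicates 1, 2 and 4.

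Beside the lysosome, the protease list held myelencephalon specific protease (RNABV39), a kallikrein of oligodendrocytes, at 0.83, 0.42, 1.20 and 1.03. The clone listed as ER-60 protease (RGIAD93), a disulphide isomerase of the endoplasmic reticulum, had 1.15, 0.36, 0.95 and 0.75. Both were lowest on replicate 2. The ER-60 call was lost when replicate 1, 3 or 4 was left out (highest adjusted p = 0.0351), and that of the kallikrein without replicate 3 or 4. A clone listed as protein disulphide isomerase A3 precursor (RGIAU04), of the same kind of enzyme as ER-60, went the other way. Its mean was -0.54 ± 0.25 (SD, n = 4), and it passed the adjusted p (0.0134) inside the limit. Tissue plasminogen activator (RNABP80), which activates plasminogen, had -0.27, 0.94, 0.62 and 0.44 and did not pass (adjusted p = 0.125).

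Protease inhibitors showed the widest spread between animals. Of 4 clones tested 3 were called upregulated, with a median of 1.71 over the 4 means. CPI-26 (RNABP40), a serine protease inhibitor of the contrapsin family, had -0.19 on replicate 1 and 3.50, 2.56 and 3.28 on replicates 2, 3 and 4. TIMP-1 (RGIAQ65), an inhibitor of matrix metalloproteinases, was likewise lowest on replicate 1, with -0.51 against 2.31, 2.26 and 2.65, and pancreatic secretory trypsin inhibitor type II (RNABM15) had 0.45 against 2.12, 2.30 and 2.10. In all 3, replicate 1 lay at 0.45 or lower and every other animal at 2.10 or higher. TIMP-1 had a mean of 1.68 ± 1.47 (SD, n = 4) and was not called (adjusted p = 0.0324), while CPI-26 at 2.29 ± 1.70 (SD, n = 4) just passed (adjusted p = 0.018) and lost its call without replicate 2, 3 or 4. The trypsin inhibitor lost its call without replicate 3 (adjusted p = 0.034). Without replicate 1 the TIMP-1 mean was 2.40 and it was called.

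TIMP-2 (RNABV95), the related metalloproteinase inhibitor, went differently, with 1.00, 0.85, 1.31 and 1.10 and a mean of 1.07 ± 0.19 (SD, n = 4, adjusted p = 0.000276). Its replicate 1 lay within the range of the others. The clone listed as α2-macroglobulin (RGIAO94), a broad protease inhibitor of plasma, had 1.20, 1.74, 1.83 and 2.10, but its values differed from its listed entry by more than 0.2, so the name is uncertain. Of the protease, inhibitor and calcium-binding clones whose names are uncertain for the same reason, the other 5 were not called, with means of 0.24 for the clone listed as cystatin β (RGIAQ81), -0.03 for cathepsin B (RGIAQ27), -0.27 for cathepsin L (RGIAQ73), -0.07 for calpain 2 (RGIAQ03) and -0.10 for sorcin (RGIAQ63).

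Matrix and adhesion genes were raised in 6 of 10 clones tested, with a median of 0.85. Fibronectin (RGIAQ36), a glycoprotein that links cells to matrix, had 1.00, 1.67, 2.23 and 2.14. A clone similar to fibulin 2 (RGIAN11), a protein of elastic fibres and basement membranes, had 1.96, 1.50 and 1.93 on replicates 1, 2 and 4. Fibronectin was lowest and fibulin 2 highest on replicate 1. The collagens were more even than any of these. Collagen type III α1 (RGIAM23) had 1.20, 1.18, 0.83 and 1.10, and collagen type I α-1 (RGIAN74) had 0.71, 0.79, 0.78 and 0.85, with an SD of 0.06. Osteonectin (RGIAQ88), a collagen-binding matrix protein, had 1.01, 0.66, 0.93 and 1.06.

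Prolyl 4-hydroxylase β (RNABT27), which takes part in collagen synthesis, passed the adjusted p (0.0192) at a mean of 0.52 ± 0.27 (SD, n = 4), inside the limit. Matrix Gla protein (RGIAK84), an inhibitor of calcification, had -0.46, 1.04, 0.61 and 0.37 and did not pass. Vitronectin (RNABR91), an adhesive glycoprotein of plasma and matrix, was the 1 clone of the list with a mean below 0, at -0.32, -0.80 and -0.15 on replicates 1, 2 and 4 (adjusted p = 0.0857). CD44 (RNABK17), a cell surface receptor of hyaluronan and osteopontin, had a value on replicates 1 and 2 only, 0.10 and 2.42, and was therefore not among the 3191 members.

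**Figure D1:**
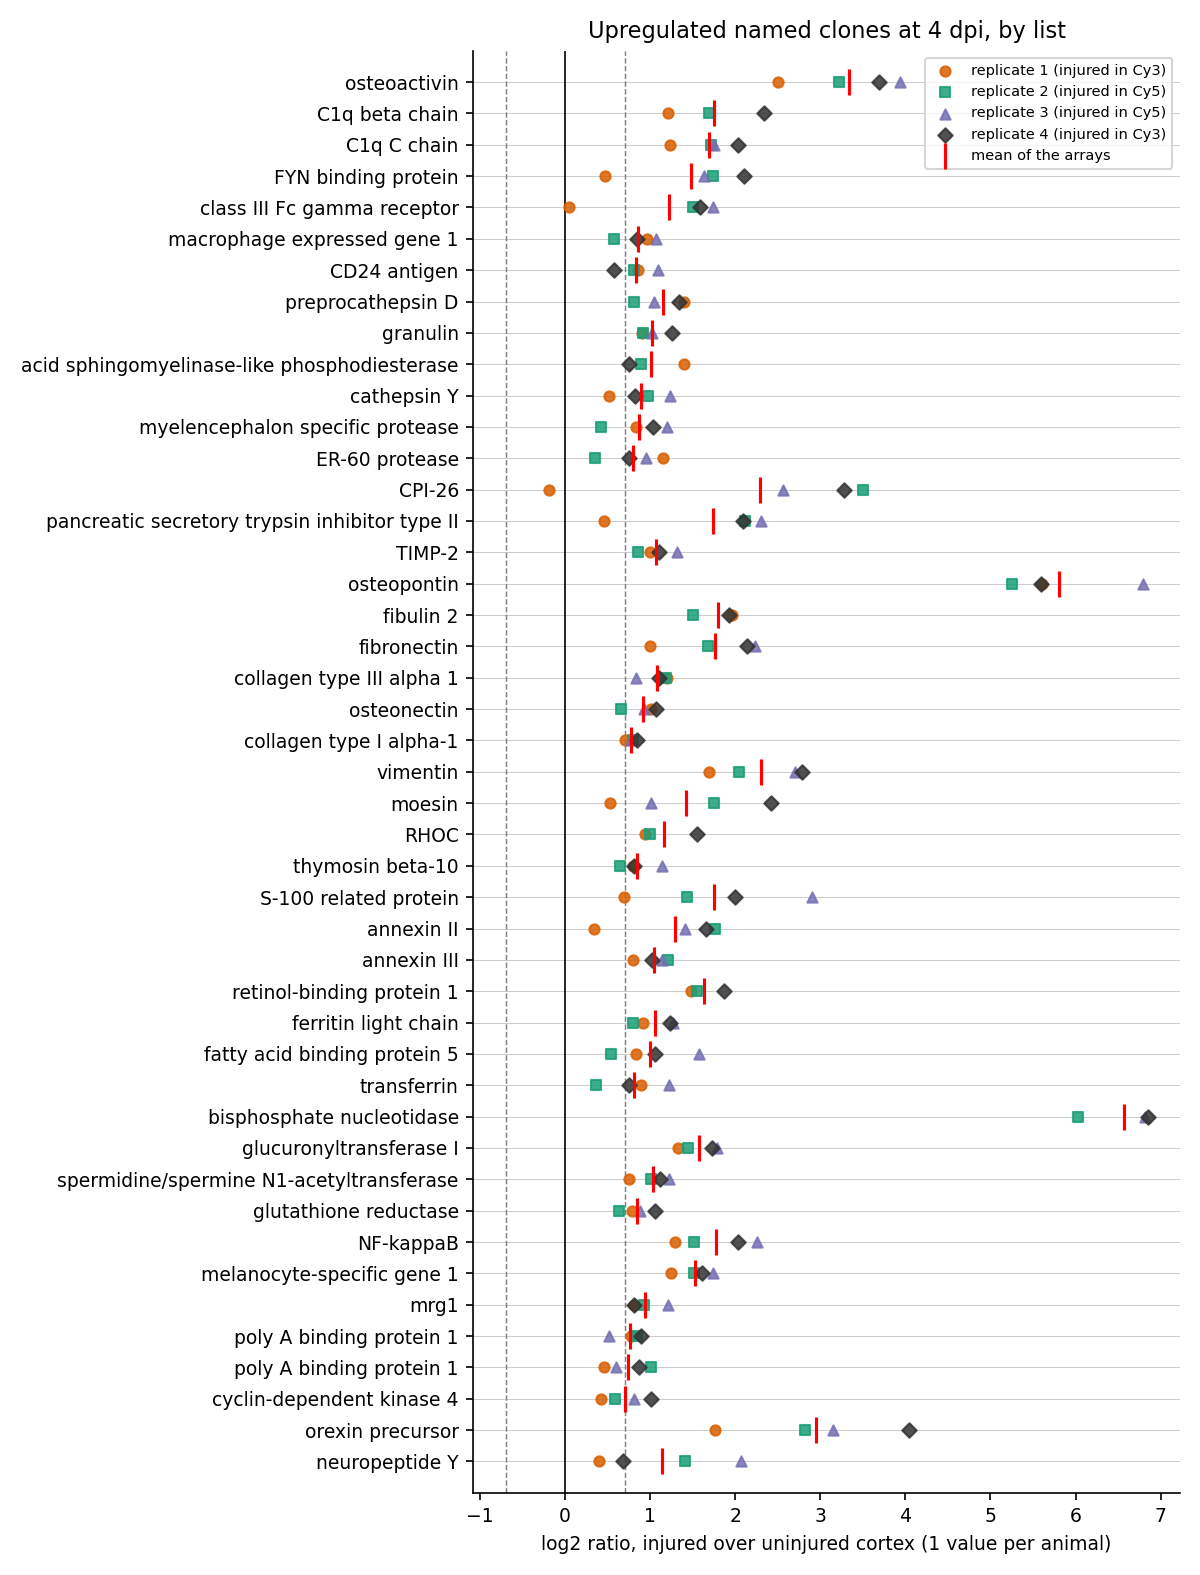
Log2 ratio of injured to uninjured cortex (x axis) for the 45 upregulated clones with a gene name in one of the lists (y axis), grouped by list. Each coloured point is 1 animal, the red bar is the mean over its arrays, and dashed lines mark 0.7 and -0.7. Osteopontin and the nucleotidase clone lie beyond 5 on every array with a value, and replicate 1 lies far below the other animals for CPI-26, pancreatic secretory trypsin inhibitor type II, the Fcγ receptor and annexin II.

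Cytoskeletal genes were called in 4 of 6 clones, and the remaining 2 passed the adjusted p inside the limit. Vimentin (RNABM67), the intermediate filament of reactive astrocytes, macrophages and fibroblasts, had 1.70, 2.04, 2.70 and 2.78 (mean 2.31 ± 0.52, SD, n = 4, adjusted p = 9.33e-05). No animal was near 0. Moesin (RGIAC38), which ties actin to the membrane, was uneven with 0.53, 1.75, 1.01 and 2.42, and its call was lost without replicate 2 or 3 (highest adjusted p = 0.034). RHOC (RNACB84), a small GTPase acting on actin, had 0.95, 1.00 and 1.55 on replicates 1, 2 and 4. Thymosin β-10 (RGIAB90), which binds actin monomers, had a mean of 0.85 ± 0.21 (SD, n = 4). Acidic calponin (RGIAN83) and ezrin (RNABM92), both partners of actin, had means of 0.68 and 0.55.

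Among annexins and calcium-binding proteins, 3 of 5 clones were called. The clone listed as S-100 related protein (RNABO14) had 0.70, 1.43, 2.90 and 1.99, and annexin II (RGIAP49), a phospholipid-binding protein of membranes, had 0.34, 1.77, 1.41 and 1.66. Both were lowest on replicate 1. The annexin II call was lost without replicate 2, 3 or 4 (highest adjusted p = 0.0388), and that of S-100 related protein without replicate 4 (adjusted p = 0.023). Annexin III (RNABU02) was even, with 0.80, 1.21, 1.14 and 1.02. Annexin V (RGIAC73) passed the adjusted p at a mean of 0.66, inside the limit, and annexin A7 (RNABA70) had -0.19, -0.52 and -0.92 and did not pass (adjusted p = 0.0442). The annexins measured thus did not all lie on 1 side of 0.

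Carriers of iron, retinoids and lipids were called in 4 of 6 clones with a median of 0.90. Retinol-binding protein 1 (RNABM84), the cellular carrier of retinol, had 1.48, 1.55 and 1.87 on replicates 1, 2 and 4 (mean 1.63 ± 0.21, SD, n = 3, adjusted p = 0.000139). Ferritin light chain (RGIAA74), which stores iron, had 0.91, 0.80, 1.27 and 1.24. Its counterpart in iron transport, transferrin (RNAA26), had 0.89, 0.36, 1.23 and 0.76 and lost its call without replicate 3 or 4 (highest adjusted p = 0.0253). Fatty acid binding protein 5 (RNABR39) had 0.83, 0.54, 1.57 and 1.06. Metallothionein (RNABO13), which binds zinc and copper, had -0.71, 0.62, 1.77 and 1.06 and did not pass (adjusted p = 0.176), nor did apolipoprotein E (RNAB87), a lipid carrier, at a mean of 0.33 ± 0.45 (SD, n = 4).

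Of 9 enzymes tested in the metabolism list, 4 were called upregulated. All 9 means lay above 0, from 0.17 to 6.56 with a median of 0.38. That sign does not describe metabolic enzymes as a class, because the list left out enzymes that the study lists as lowered. Among those left out, a glucuronyltransferase clone (RGIBB76) had a mean of -0.59 and a dienoyl-CoA reductase clone (RGIAA64) a mean of 0.56. Besides the nucleotidase, the called enzymes were glucuronyltransferase I (RGIAR36), an enzyme of glycosaminoglycan synthesis, with 1.33, 1.44, 1.79 and 1.73. Spermidine/spermine N1-acetyltransferase (RNABH03), which breaks down polyamines, had 0.75, 1.02, 1.23 and 1.12. Glutathione reductase (RGIAD15), which regenerates the antioxidant glutathione, had 0.79, 0.63, 0.88 and 1.06. Clones of glucose use did not pass. Lactate dehydrogenase A (RGIAN09) had 0.25, 0.21, 0.92 and 0.12, phosphofructokinase (RNABU76) had a mean of 0.23 ± 0.08 (SD, n = 4, adjusted p = 0.119) and glucose transporter 1 (RGIAK80) a mean of 0.23 ± 0.48 (SD, n = 4).

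In the list of transcription, translation and cell cycle genes, 6 of 13 clones were called. The NF-κB clone (RNABM55), for the transcription factor of inflammatory genes, had 1.30, 1.51, 2.25 and 2.03. Melanocyte-specific gene 1 (RGIAG34) and mrg1 (RNACE49) are related coactivators that bind CBP and p300. Melanocyte-specific gene 1 had 1.25, 1.52, 1.74 and 1.61 (mean 1.53 ± 0.21, SD, n = 4, adjusted p = 4.54e-05), and mrg1 had 0.81, 0.93, 1.21 and 0.81. Every animal lay above 0.8 for both. The pair of clones of poly A binding protein 1, which binds the tails of messenger RNA, gave means of 0.76 (RGIAS49) and 0.74 (RNACA38), and the call of RNACA38 was lost without replicate 2 or 4. Cyclin-dependent kinase 4 (RGIAD58), a kinase of the G1 phase, had a mean of 0.71 ± 0.26 (SD, n = 4), just beyond the limit, and lost its call without replicate 3 or 4. The immediate early gene c-fos (RNACF11) had -0.95, 2.00 and 0.82 on replicates 1, 2 and 3 and did not pass (adjusted p = 0.381).

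Of 5 clones of growth factors and neuropeptides tested, 2 were called upregulated, both neuropeptides. The clone listed as orexin precursor (RNABU29), the source of peptides of hypothalamic neurons, had 1.77, 2.82, 3.15 and 4.05 (mean 2.94 ± 0.94, SD, n = 4, adjusted p = 0.000317). It lay above 1.7 in every animal. Neuropeptide Y (RNABV45), a peptide of cortical interneurons, had 0.40, 1.40, 2.07 and 0.69, with a mean of 1.74 on the arrays with the injured side in Cy5 and of 0.54 on those with it in Cy3, and its call was lost without replicate 2, 3 or 4 (highest adjusted p = 0.0523). Cholecystokinin (RNABU89), another peptide of cortical neurons, had 0.26, 0.61, 1.13 and 0.34 and did not pass (adjusted p = 0.0247). For both neuropeptide Y and cholecystokinin replicate 3 was highest and replicate 1 lowest. IGF-II (RNABO23), a growth factor made by meninges and choroid plexus, was even in the other direction, with -0.76, -0.70, -0.67 and -0.59, and passed the adjusted p (0.00132) just inside the limit.

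**Figure D2:**
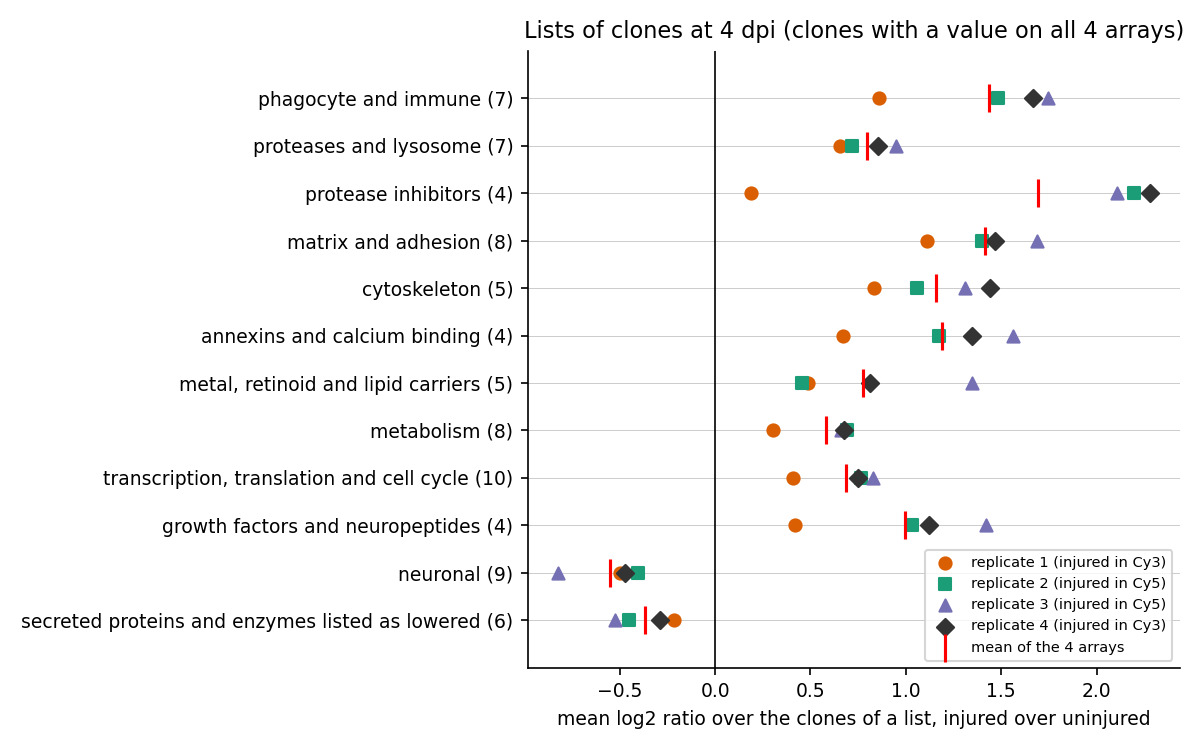
Mean log2 ratio over the clones of each list that had a value on all 4 arrays (x axis), by list (y axis, with the number of clones in brackets). Each point is 1 animal and the red bar is the mean of the 4 animals. Replicate 1 is the lowest or second lowest animal in the 10 raised lists, and for protease inhibitors it lies at 0.19 against 2.11 to 2.28 in the others.

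Neuronal genes made up most of the named downregulated clones. Of 9 clones of this list tested, 6 were called downregulated, and the median of their means was -0.76. The Na+K+ ATPase clone (RGIAM85), for the pump that restores ion gradients after firing, had -1.08, -0.72, -1.07 and -0.95 (mean -0.95 ± 0.17, SD, n = 4, adjusted p = 0.000417). It had the lowest mean of all clones tested. Brain-enriched guanylate kinase-associated protein 1 (BEGAIN, RNABT01), a protein of the postsynaptic density, had -0.76, -0.55, -1.20 and -0.77. CDCrel-1A (RGIAN17), a septin of presynaptic terminals, had -0.79, -0.73, -1.11 and -0.58. All 3 lay below -0.5 in every animal.

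The other called clones of the list act in synaptic signalling. The CaM-KII inhibitor (RNACA04) had -0.81, -0.49, -0.94 and -0.78, cpg2 (RNABY86), a protein of the postsynaptic spine, had -0.39, -0.57, -1.26 and -0.83, and 90 kDa diacylglycerol kinase (RNABL04), a lipid kinase, had -0.91, -0.31, -0.75 and -0.97. Replicate 3 was the lowest animal in 4 of the 6 called neuronal clones, all but Na+K+ ATPase and the diacylglycerol kinase. Leaving it out left 4 downregulated clones in all, of which 3 were among the 12. The call of cpg2 was lost without replicate 2, 3 or 4 (highest adjusted p = 0.0413) and that of the diacylglycerol kinase without replicate 1, 3 or 4 (highest adjusted p = 0.033), while those of BEGAIN and the CaM-KII inhibitor were lost without replicate 3. Na+K+ ATPase and CDCrel-1A kept their call whichever array was left out.

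The other 3 neuronal clones were not called. N-copine (RNABY95), a calcium-dependent membrane-binding protein of neurons, had 0.01, -0.63, -0.95 and 0.03, near 0 on the arrays with the injured side in Cy3 and below -0.6 on those with it in Cy5. G protein β1 (RGIBA64) had a mean of -0.38 ± 0.37 (SD, n = 4). The clone listed as neuron specific gene family member (RNABN51) lay on the other side, with 0.63, 0.52, 0.74 and 0.70, and passed the adjusted p (0.00189) inside the limit.

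Of all clones that the study lists as lowered, at an earlier day or at 4 dpi, 48 were tested here, neuronal ones included. Of these 8 were called downregulated and 37 had a mean below 0, with a median of -0.27 and means from -0.95 to 0.56. All 7 clones listed as lowered at 4 dpi, from these same arrays, were called (median -0.77). Among the 41 listed at the earlier day, 1 was called (median -0.21). A list picked from the 48, mainly of secreted proteins and enzymes but with other proteins too, held 9 tested clones. Their median was -0.29, and 1 was called. It was smooth muscle-associated protein 8 (RNABZ09), with -0.51, -0.73, -0.89 and -0.70, whose call was lost without replicate 3. Glutathione S-transferase mu 3 (RNABI84), a detoxifying enzyme, passed the adjusted p (0.00989) at -0.51 ± 0.16 (SD, n = 4). D site albumin promoter binding protein (RNABX44), a circadian transcription factor, had -0.18, -0.62, -0.62 and -0.40 and narrowly missed it (adjusted p = 0.0205). The highest mean of this list was 0.02, while over all 48 clones it was 0.56, that of 2,4-dienoyl-CoA reductase (RGIAA64), an enzyme of fatty acid oxidation, which did not pass (adjusted p = 0.0246).

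**Figure D3:**
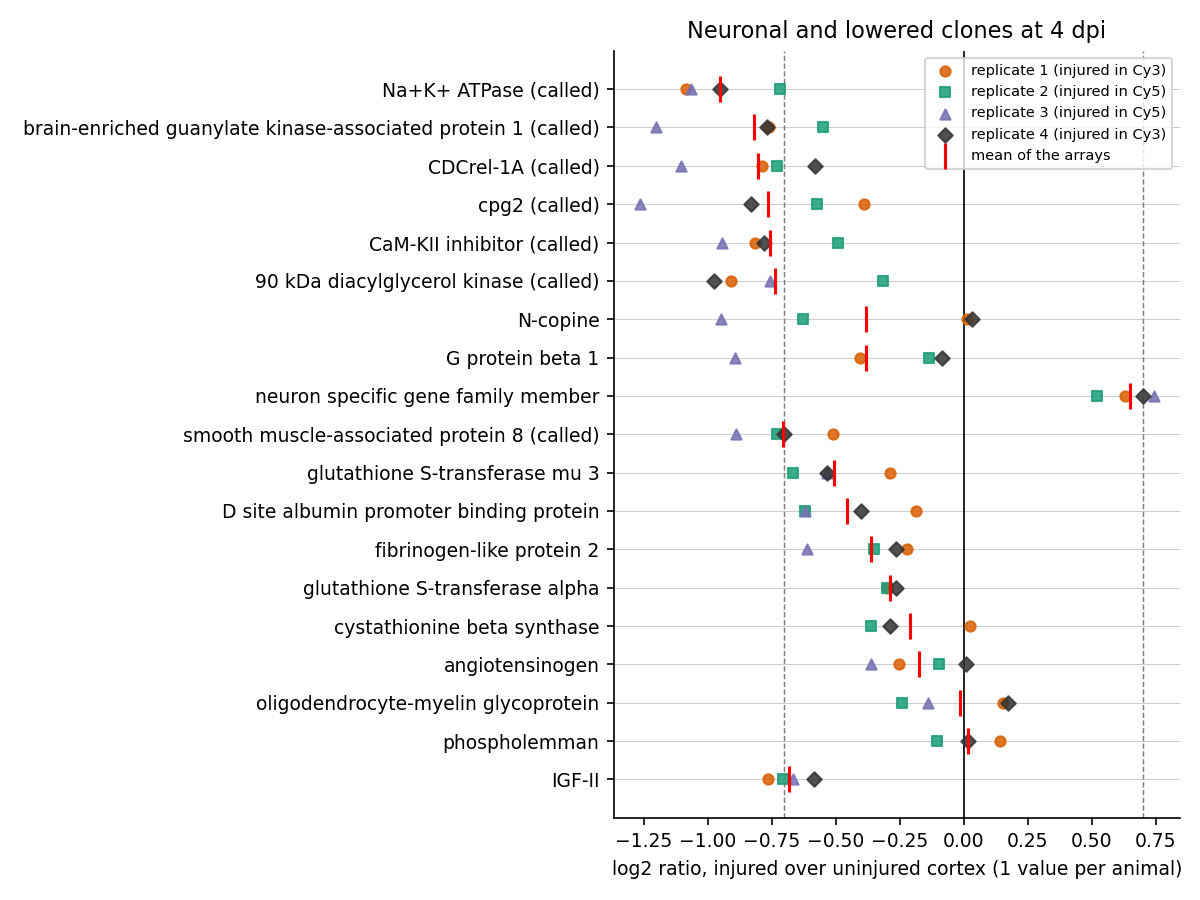
Log2 ratio of injured to uninjured cortex (x axis) for the 9 neuronal clones, the 9 other clones listed as lowered, and IGF-II (y axis). Each coloured point is 1 animal, the red bar is the mean, dashed lines mark 0.7 and -0.7, and clones called downregulated are marked. The called neuronal clones lie below 0 in every animal, with replicate 3 the lowest in 4 of the 6.

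The same clones can be read as markers of cell types, which adds no evidence beyond the lists they belong to. Of 5 phagocyte markers 4 were tested and all 4 were called upregulated, with means from 0.86 to 1.75, while β2-microglobulin and natural resistance-associated macrophage protein 2 (RNACD17; mean -0.04), of the wider immune list, were not called. All 4 markers of fibroblasts and vessel wall were called upregulated, with means from 0.78 to 1.76. In the wider matrix list, matrix Gla protein (mean 0.39) and vitronectin (mean -0.42) were not called. Smooth muscle-associated protein 8, of another list, was called downregulated. Of 6 neuronal markers 5 were tested and 4 were called downregulated, while other neuronal clones outside the marker set lay above 0, among them neuron specific gene family member at 0.65, the orexin precursor and neuropeptide Y, both called upregulated, and cholecystokinin at 0.59. Of the 3 oligodendrocyte markers, myelencephalon specific protease and transferrin were called upregulated, while oligodendrocyte-myelin glycoprotein (RNACB85) had 0.15, -0.24, -0.14 and 0.17. The part of cell number in these ratios was not tested. A ratio of sides gives no level, so the presence of cortical markers could not be checked in a single hemisphere.

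Replicate 1 was set apart by a subset of the raised genes and not by all of them. It gave the lowest value in 45 of the 83 upregulated clones it measured. In 16 of them it lay more than 1 log2 unit below the mean of the other arrays, while in 55 it lay within 0.5 of that mean. The 16 included CPI-26, the trypsin inhibitor, the Fcγ receptor, FYN binding protein, annexin II, moesin, fibronectin, osteoactivin, the orexin precursor, S-100 related protein and the chloride channel ABP clone (RGIAD68; 0.29, 1.78 and 1.67 on replicates 1, 2 and 3, with the call lost without replicate 2, 3 or 4). Cathepsin D, granulin, both collagens, osteonectin, TIMP-2 and macrophage expressed gene 1 were among those within 0.5. Without replicate 1, 105 of the same 3191 clones were called upregulated, 80 of them among the 84. The injured side was in Cy3 on replicate 1 and on replicate 4, and the part of the animal, the dye or the array in this pattern was not tested.

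**Figure D4:**
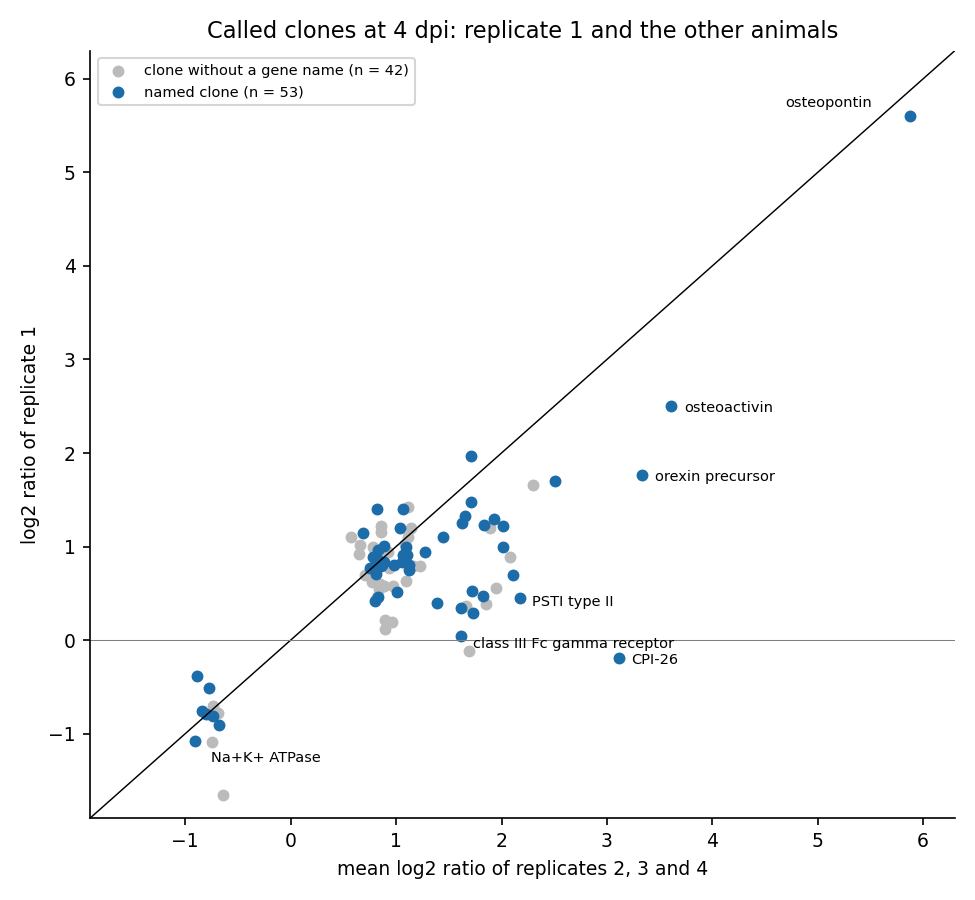
Log2 ratio on replicate 1 (y axis) against the mean log2 ratio of replicates 2, 3 and 4 (x axis) for the 95 called clones with a value on replicate 1, blue where a gene name was used and grey otherwise. The line marks equal values. Most points lie near the line, while CPI-26 and the class III Fcγ receptor lie close to 0 on replicate 1.

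Of the 84 upregulated clones, 29 were not in the study's lists, 7 were listed as unknown or as an expressed sequence tag, and 1 was the uncertain α2-macroglobulin clone. The unlisted ones reached 2.14. RGIAG44 had 1.66, 2.26, 2.07 and 2.57 (mean 2.14 ± 0.38, SD, n = 4, adjusted p = 4.54e-05), and RGIAI75 had 0.88, 1.27, 2.52 and 2.46. Both were above 0.8 in every animal. RNABP81 repeated the order of CPI-26, with -0.12 on replicate 1 and 1.80, 1.55 and 1.71 on the others, and lost its call without replicate 2, 3 or 4, as RGIAI75 did without replicate 3. Among the downregulated clones, RNABL84 had -1.65, -0.35, -0.69 and -0.89, RNABY04 had -1.08, -0.28, -1.29 and -0.67, and RNABT47 had -0.70, -0.62, -0.87 and -0.71. All 3 were least lowered on replicate 2. The call of RNABL84 was lost without replicate 1, 3 or 4, that of RNABY04 without replicate 3 or 4 and that of RNABT47 without replicate 3. These clones were singled out by their means or after their values were seen, and no gene name is given for them.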

How the data were processed

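RNA of 4 rats at 4 dpi was measured on 2-colour cDNA arrays, 1 per animal, and arrays were assigned to day, replicate and dye by their labels. The authors analysed the scanned images with GenePix Pro and excluded absent spots and spots under 2 times background. They turned the ratio for dye-swapped arrays, applied Lowess within each array and deposited log2 ratios. The arrays of the earlier day were not used, and 0 columns belonged to no sample. Spot intensities were not analysed here. Precision is limited by having 4 arrays.

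Means were tested against 0 with limma 3.58.1 (R 4.3.3) and Benjamini-Hochberg adjustment over 3191 clones with a value on at least 3 arrays. The limits of 0.02 and 0.7 follow the methods, which apply 0.7 to each array as well. Here it was applied to the mean, with 0.7 on every array as an alternative, as was SAM, the test of the methods. P-values measure the spread between these 4 animals. Tables and figures used Python 3.11.15, pandas 2.3.3 and matplotlib 3.10.9. On simulated ratios limma recovered 85% of 200 changes of 1 and 99% of changes of 2 among 3191 clones.

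Names came from the study's lists through clone IDs. These hold 252 clones. Of them 227 were used, 31 of these (N-copine, apolipoprotein E and oligodendrocyte-myelin glycoprotein among them) with no listed value at 4 dpi to check against, 12 were not used because their values differed from the listed entry by more than 0.2 as a mean of log2 or of linear ratios, 8 had no value, 4 IDs were not matched and 1 was listed more than once. The text gives clones of 12 lists of named genes, the 15 largest upregulated and 12 lowest downregulated clones of 1 sign on every array, and others singled out as stated. Members and lists were chosen with earlier results of these data known. Alternatives were SAM, the limits, the number of arrays, a dye term, centring, scaling to 1 median absolute deviation, robust eBayes, array weights and leaving out each array.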

Additional observations from a re-analysis of the deposited data

Results flagged for a closer look

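In 8 of the 82 clones and lists checked with a value on all 4 animals, 1 animal stood apart from the other 3 by Dixon's test. The limit used is passed by chance in about 1 in 20. That rate is no yardstick here, because the clones and lists were chosen with earlier results of these data known. In 6 of the 8 the animal was replicate 1. It had 0.45 for pancreatic secretory trypsin inhibitor type II, 0.048 for the class III Fcγ receptor, -0.51 for TIMP-1 and -0.055 for β2-microglobulin. Over the list of protease inhibitors its mean was 0.19, and over the clones of the metabolism list measured on all 4 arrays it was 0.30. The other 2 were high values of replicate 3, at 0.76 for ezrin and 0.92 for lactate dehydrogenase A. The lists hold some of the clones named, so the 8 are not independent, and the cause was not tested.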

How the results depend on the processing

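Without a limit on the mean, 151 clones were called upregulated and 67 downregulated, with a limit of 1 the counts were 46 and 0, and with 0.7 on every array, a form the methods also name, 35 and 1. At a limit of 1, no clone lay below -1 by its mean. Of the 3191 clones, 504 above 0 and 429 below 0 had an unadjusted p under 0.05 by limma. SAM called 88 and 12, among them all 84 and 12. Leaving out 1 array gave 72 to 108 upregulated and 4 to 14 downregulated clones, and 61 to 105 and 4 to 15 over the same 3191 clones, a choice made after seeing the data. The fewest downregulated clones, 4, came without replicate 3, and 7 without replicate 4. The remaining alternatives kept the upregulated count between 67 and 105 and the downregulated count between 9 and 17. With the median in place of the mean over clones, the matrix and adhesion list moved from 1.32 to 0.88 and the neuronal list from -0.55 to -0.76. Of the 84 upregulated clones 50 kept their call whichever array was left out, and 2 of the 12 downregulated. No called clone named here changed sign with the median over arrays, balanced dyes, centring, scaling or any array left out. No paired analysis was possible because no other group that shares the replicate numbers is used here; the pairing of the hemispheres within each animal is already in every ratio.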
